A study of Mus musculus with 6 samples.

Results

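The genes described here encode the proteasome and its partners in mouse mammary tumor cells. They were chosen by symbol alone, as every protein-coding gene of the mouse annotation whose symbol starts with Psma, Psmb, Psmc, Psmd, Psme, Psmf or Psmg followed by a number, other than Psmb8 and Psmb9. The annotation holds 48 such genes, and 46 of them were among the 22310 genes of the deposited table. Psma8 and Psmb11, subunits of the proteasomes of testis and thymus, were not among the rows analysed here. Of the 46, Psmc3ip matches by symbol only, since it encodes a partner of meiotic recombinases and no proteasome subunit, so group counts below are over the other 45.

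RNA was sequenced from primary tumor cells of MMTV-PyMT mice, in which the promoter of mouse mammary tumor virus drives the polyoma middle T oncogene in mammary epithelium. The study compared metastasis-initiating cells (MICs), sorted as Lin-CD24+CD90+, with their non-MIC counterparts, sorted as Lin-CD24+CD90-, where Lin stands for CD45, CD31 and Ter119. The mice were of the FVB/N strain, aged 12 to 18 weeks by the study's methods, and the labels give the genotype WT for both populations and no treatment beyond culture. The tumor cells had been plated in medium with 2% serum, 10 µg/ml insulin and 20 ng/ml EGF and were sorted by flow cytometry 1 day later, so that both populations had been out of the tumor for that time.

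Each population had 3 libraries, numbered 1 to 3 in both, and libraries of the same number are called a pair. The labels do not say which tumor or how many animals stand behind a number. The study describes its replicates as separate experiments or tumors, and p-values below measure only the spread between these libraries. The deposited values are reads per gene scaled so that every library sums to 35000000, and the reads of each library could be recovered from them. MIC and non-MIC library 3 were the deepest, with 51759769 and 49904738 reads, while the number 1 and 2 libraries had between 31467281 and 33126717. Thy1, which encodes CD90, had values of 1509, 301 and 755 in MIC libraries 1, 2 and 3 and of 16.9, 21.1 and 12.6 in non-MIC libraries 1, 2 and 3. The values of Ptprc (CD45) and Pecam1 (CD31) were between 0 and 19.4 in all 6 libraries, whereas all 10 epithelial markers examined were present. The summed level of 9 basal and myoepithelial markers in the MIC library was 2.96, 1.01 and 1.53 times that in the non-MIC library of pairs 1, 2 and 3, and that of 9 fibroblast markers 1.87, 0.907 and 3.42 times. The share of mitochondrial transcripts was 0.663%, 2.28% and 1.60% in the MIC libraries and 1.55%, 1.22% and 2.17% in the non-MIC libraries.

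The proteasome degrades proteins that carry ubiquitin chains. Its core is a barrel of stacked rings, in which the outer alpha rings form the gate and the inner beta rings hold the proteolytic sites. The 19S cap recognises ubiquitin, removes it and unfolds the substrate with a ring of ATPases, other activators can take the place of the cap, and dedicated chaperones assemble the core and the base of the cap. When the proteasome is impaired, the transcription factor NRF1 (Nfe2l1) is released from the endoplasmic reticulum and induces subunit genes through antioxidant response elements. Tumor cells with high protein synthesis are known to depend on the proteasome, and its inhibitors are used as drugs in myeloma.

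The core genes were higher in MICs than in non-MICs in pairs 1 and 2 and nearly equal in pair 3. Their summed level, as a share of the library, was 0.321%, 0.345% and 0.244% in MIC libraries 1, 2 and 3 and 0.218%, 0.218% and 0.254% in non-MIC libraries 1, 2 and 3, so that the MIC library held 1.47, 1.58 and 0.961 times the level of its partner. MIC libraries 1 and 2 lay above the rest, while the number 3 libraries lay close together, and after rescaling by TMM (trimmed mean of M-values) the ratios were 1.51, 1.47 and 1.01. The 17 genes of the 19S cap differed less, with ratios of 1.23, 1.07 and 0.989 (1.27, 0.994 and 1.04 after TMM). Summed over all 45 genes, the proteasome made up 0.877%, 0.837% and 0.776% of the MIC libraries and 0.687%, 0.682% and 0.796% of the non-MIC libraries. In these bulk libraries, fewer cells of a type and less RNA per cell cannot be told apart.

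**Figure D1:**
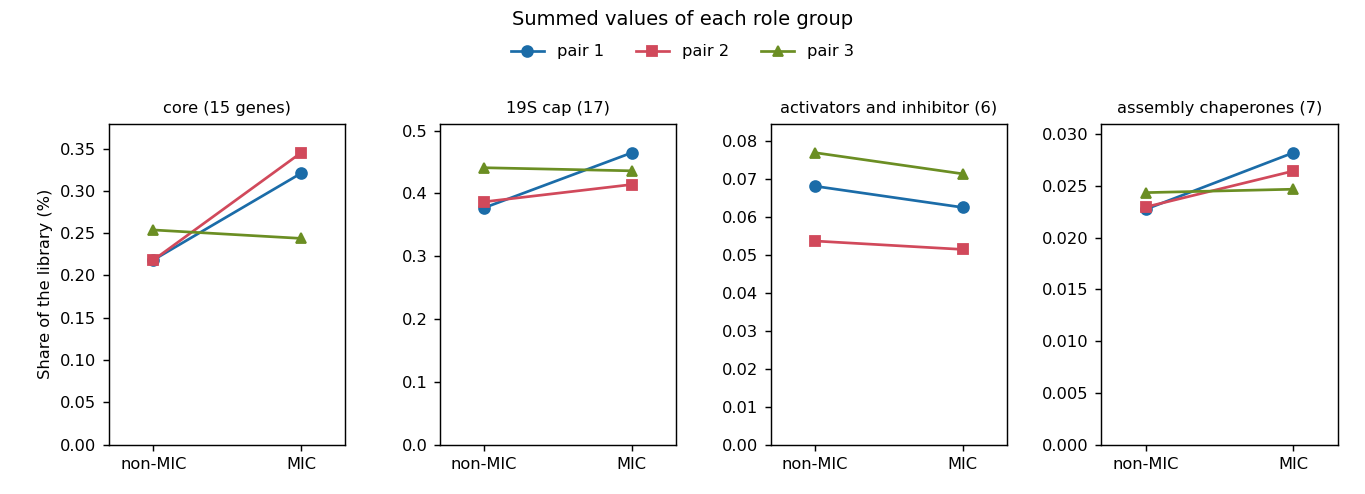
Summed values of 4 groups of proteasome genes as a percent of the library (vertical axes, each from 0), in non-MIC and MIC libraries, with lines joining libraries of the same number. The lines of pairs 1 and 2 go up for the core, from 0.218% to 0.321% and to 0.345%, while pair 3 goes from 0.254% to 0.244% and is at 1.01-fold after TMM.

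No proteasome gene passed the test for a difference between MICs and non-MICs. Without a block for the replicate number, limma's adjusted p over all 22310 genes was 1.00 for each of the 46 genes, and no gene at all was called (0.0% in either direction). The SEs given below are those of this fit, and the adjusted p given beside them are those of the fit with the block. At an unadjusted p under 0.05, 2 of the 45 genes were higher in MICs (Psma6 and Psmd14) and none was lower, beside 0.708% and 0.735% of all genes. With the replicate number as a block, which uses the pairing of the libraries, limma called 27 genes of the table higher in MICs (0.121%) and 2 lower (0.00896%), none of them a proteasome gene, and the lowest adjusted p of a proteasome gene was 0.417. At an unadjusted p under 0.05 the fit with the block gave 8 proteasome genes higher (Psma6, Psma3, Psmd14, Psmd10, Psmc6, Psmb1, Psma5 and Psma2) and none lower, beside 5.24% and 5.97% of all genes. In edgeR on the recovered reads, no gene was called without the block (0.0% in either direction), and at an unadjusted p under 0.05 there were 3 proteasome genes higher and none lower, beside 0.807% and 0.515% of all genes. With the block, edgeR called 1.04% of genes higher and 0.372% lower and again no proteasome gene, with 8 of them higher and none lower at an unadjusted p under 0.05, beside 5.89% and 5.85% of all genes. Psma3 and Psma6 came closest, with edgeR adjusted p of 0.0861 and 0.0885. DESeq2 without the block called 1 gene higher (0.00452%) and none lower (0.0%), with 3 proteasome genes higher and none lower at an unadjusted p under 0.05, beside 0.998% and 0.203% of all genes. With the block it called 0.735% higher and 0.154% lower of the 14957 genes to which it gave an adjusted p, and 11 proteasome genes were higher and none lower at an unadjusted p under 0.05, beside 5.12% and 3.46% of all genes. DESeq2 called no proteasome gene in either fit.

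Counted pair by pair, all 15 core genes were higher in the MIC library of pair 1, where 45.2% of all genes were. In pair 2, 14 of the 15 were higher, all but Psmb10, beside 53.5% of all genes. In pair 3 only Psmb7 of the 15 was higher, beside 35.8% of all genes, but the differences there were small, at most 0.171 in size on the log2 scale, and after TMM 8 of the 15 were higher, beside 51.1% of all genes. All 15 core genes had a coding length under 1000 bases. Of 1960 genes of that length with a mean value over 1000, 1411, 1283 and 836 were higher in pairs 1, 2 and 3 as deposited. The median core difference was 0.52, 0.53 and -0.062 in pairs 1, 2 and 3, against -0.015, 0.039 and -0.051 over all genes, and after TMM it was 0.56, 0.42 and 0.0075. TMM moves every difference of a pair by 0.041, -0.108 and 0.0696 in pairs 1, 2 and 3, so that statements on the direction in pair 3 hold only for the scaling that was deposited.

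**Figure D2:**
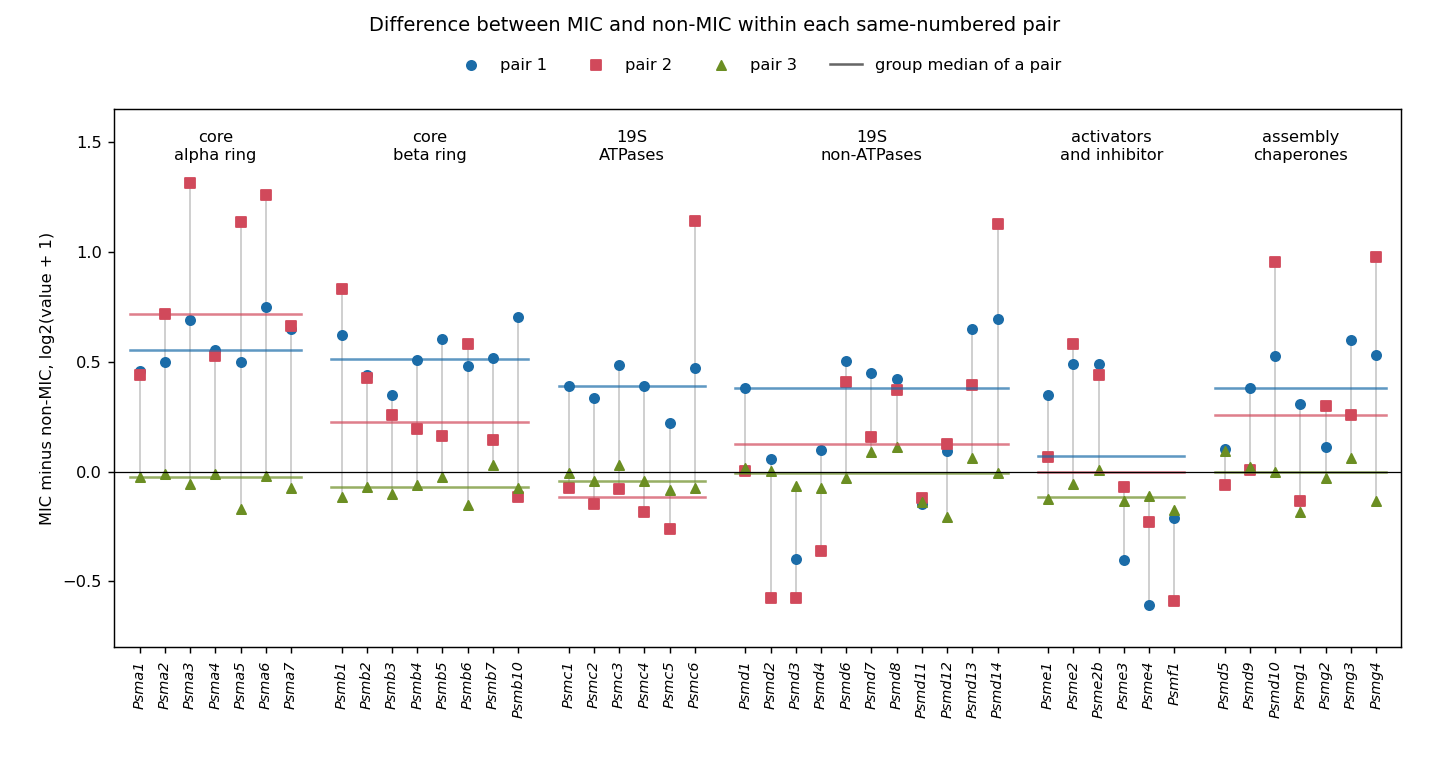
Difference between the MIC and the non-MIC library of each pair on the log2(value + 1) scale (vertical axis) for 45 proteasome genes in 6 role groups, with 1 point per pair and horizontal lines at the group medians of each pair. Every core gene is above 0 in pair 1, and the points of pair 3 stay between -0.208 and 0.113, where their side of 0 depends on the scaling of the libraries.

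Across the whole family, the median difference was 0.46, 0.19 and -0.044 in pairs 1, 2 and 3, with 40, 30 and 11 of the 45 genes higher in MICs, and after TMM 40, 27 and 27 were. In pair 3, 32 of the 45 genes (71.1%) differed by less than 0.1 on the log2 scale. In that pair 32.4% of all genes did, and 55.4% of the 6542 genes with a mean value over 1000. The pattern of a higher level in pairs 1 and 2 with a lower one in pair 3 was met by 22 of the 45 genes, among them 13 of the 15 core genes, and by 15.6% of all genes.

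Only 8 of the 45 genes were higher in MICs in all 3 pairs, namely Psmb7, Psmd1, Psmd7, Psmd8, Psmd9, Psmd13, Psme2b and Psmg3, beside 12.5% of all genes. Another 5 were lower in all 3 pairs, Psmd3, Psmd11, Psme3, Psme4 and Psmf1, beside 18.8% of all genes. After TMM, 18 were higher in all 3 pairs (14.7% of all genes), which included 6 of the 8, without Psmd1 and Psmd9. The genes lower in all 3 pairs were then the other 4 without Psmd3 (16.4% of all genes). The MIC and non-MIC libraries did not overlap for 5 genes, with Psmd7, Psmd8 and Psmd13 above (2.69% of all genes) and Psmd3 and Psmf1 below (3.55%). After TMM, 8 genes were above without overlap (3.34% of all genes), with Psmd8 and Psmd13 among them, and Psmf1 alone was below (3.3%), while Psmd3 and Psmd7 overlapped.

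Promoter windows of 300 bases, from 250 before to 50 after the start, were taken from RefSeq on GRCm38.p6 and covered 39 of the 46 genes with 42 windows. Both strands were searched for the antioxidant response element TGACNNNGC, through which NRF1 acts, and for the box CCAAT, which NF-Y binds. The first was in 6 of the 42 windows (14.3%), of Psmb5, Psmb6, Psmc6, Psmd9, Psmd12 and Psme4, beside 12.4% of 32851 windows of all genes. The second was in 13 windows (31.0%), beside 37.4% of all windows. By group it was in 5 of 8 windows of the alpha ring and 1 of 5 of the beta ring. It was in 2 of 6 windows of the ATPases and 2 of 9 of the non-ATPases. It was in 1 of 7 of the activators and inhibitor, 1 of 6 of the chaperones and the 1 of Psmc3ip. The first was in 0 of the 8 alpha ring windows. The windows of Psmb5 and Psmb6 are printed because their products hold catalytic sites and both contain the first motif. Those of Psma3 and Psmd14 are printed because these genes were among the most different in pair 2 and contain only the second. Psmc6 and Psma5, which differed more in pair 2 than Psmd14, had no CCAAT box in their windows. Capitals mark the motifs, on either strand.
Psmb5, chr14:54617946-54618245, minus strand: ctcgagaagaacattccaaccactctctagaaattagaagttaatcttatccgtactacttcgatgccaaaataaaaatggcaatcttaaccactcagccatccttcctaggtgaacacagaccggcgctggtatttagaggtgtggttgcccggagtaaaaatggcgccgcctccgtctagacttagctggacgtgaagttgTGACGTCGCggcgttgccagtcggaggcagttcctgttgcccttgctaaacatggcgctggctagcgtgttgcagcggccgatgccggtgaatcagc
Psmb6, chr11:70525107-70525406, plus strand: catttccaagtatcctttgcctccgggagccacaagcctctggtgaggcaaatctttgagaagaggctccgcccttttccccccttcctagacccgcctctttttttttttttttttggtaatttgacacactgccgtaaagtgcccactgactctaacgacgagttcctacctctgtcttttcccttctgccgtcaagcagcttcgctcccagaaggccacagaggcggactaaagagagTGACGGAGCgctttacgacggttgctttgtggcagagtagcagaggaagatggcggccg
Psma3, chr12:70974373-70974672, plus strand: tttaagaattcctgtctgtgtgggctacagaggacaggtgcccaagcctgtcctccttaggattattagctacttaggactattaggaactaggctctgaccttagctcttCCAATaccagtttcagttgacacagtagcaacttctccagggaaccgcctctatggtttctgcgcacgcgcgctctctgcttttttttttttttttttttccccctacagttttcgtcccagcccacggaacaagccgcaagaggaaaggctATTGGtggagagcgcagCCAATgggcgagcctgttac
Psmd14, chr2:61711444-61711743, plus strand: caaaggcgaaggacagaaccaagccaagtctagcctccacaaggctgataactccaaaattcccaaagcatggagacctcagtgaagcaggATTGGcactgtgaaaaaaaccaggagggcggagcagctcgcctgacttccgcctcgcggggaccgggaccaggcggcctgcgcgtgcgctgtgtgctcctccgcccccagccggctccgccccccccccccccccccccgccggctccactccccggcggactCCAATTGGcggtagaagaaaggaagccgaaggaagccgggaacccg
The elements of Psmb5 and Psmb6, TGACGTCGC and TGACGGAGC, begin 47 and 9 bases before the start. In Psmd14, a pair of the CCAAT boxes overlap on opposite strands. Letters in these windows say nothing about binding in these cells.

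The alpha ring, which gates the entry to the barrel, had the highest median difference of the 6 groups in pairs 1 and 2, at 0.55, 0.72 and -0.024 in pairs 1, 2 and 3 (0.59, 0.61 and 0.045 after TMM). All 7 genes were higher in the MIC library in pairs 1 and 2. Psma6, a structural alpha subunit, had values of 11276, 13396 and 9142 in MIC libraries 1, 2 and 3 and of 6712, 5602 and 9264 in non-MIC libraries 1, 2 and 3. MIC libraries 1 and 2 were the highest of the 6, and both number 3 libraries lay between them and the remaining non-MIC libraries. Psma6 had a log2 fold change of 0.66 ± 0.25 (SE, n = 3 libraries per group), with an unadjusted limma p of 0.0323 without the block and an adjusted p of 0.417 with it.

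Psma3, another alpha subunit, was at 6997, 10203 and 5097 in the MIC libraries and at 4329, 4107 and 5304 in the non-MIC libraries. Its difference in pair 2, 2.48-fold, was the highest of the 45 genes, whereas MIC library 3 lay among the non-MIC libraries. Psma3 had a log2 fold change of 0.65 ± 0.28 (SE), with a limma adjusted p of 0.417 with the block.

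Psma5 had 4778, 7150 and 4394 in the MIC libraries and 3377, 3251 and 4946 in the non-MIC libraries. Here non-MIC library 3 exceeded MIC libraries 1 and 3. The fold change of 0.49 ± 0.27 on the log2 scale (SE) had a limma adjusted p of 0.431 with the block. The remaining alpha genes, Psma1, Psma2, Psma4 and Psma7, had differences between 0.44 and 0.72 in pair 2 and between -0.075 and -0.011 in pair 3, and all 4 were between 0.46 and 0.65 in pair 1.

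**Figure D3:**
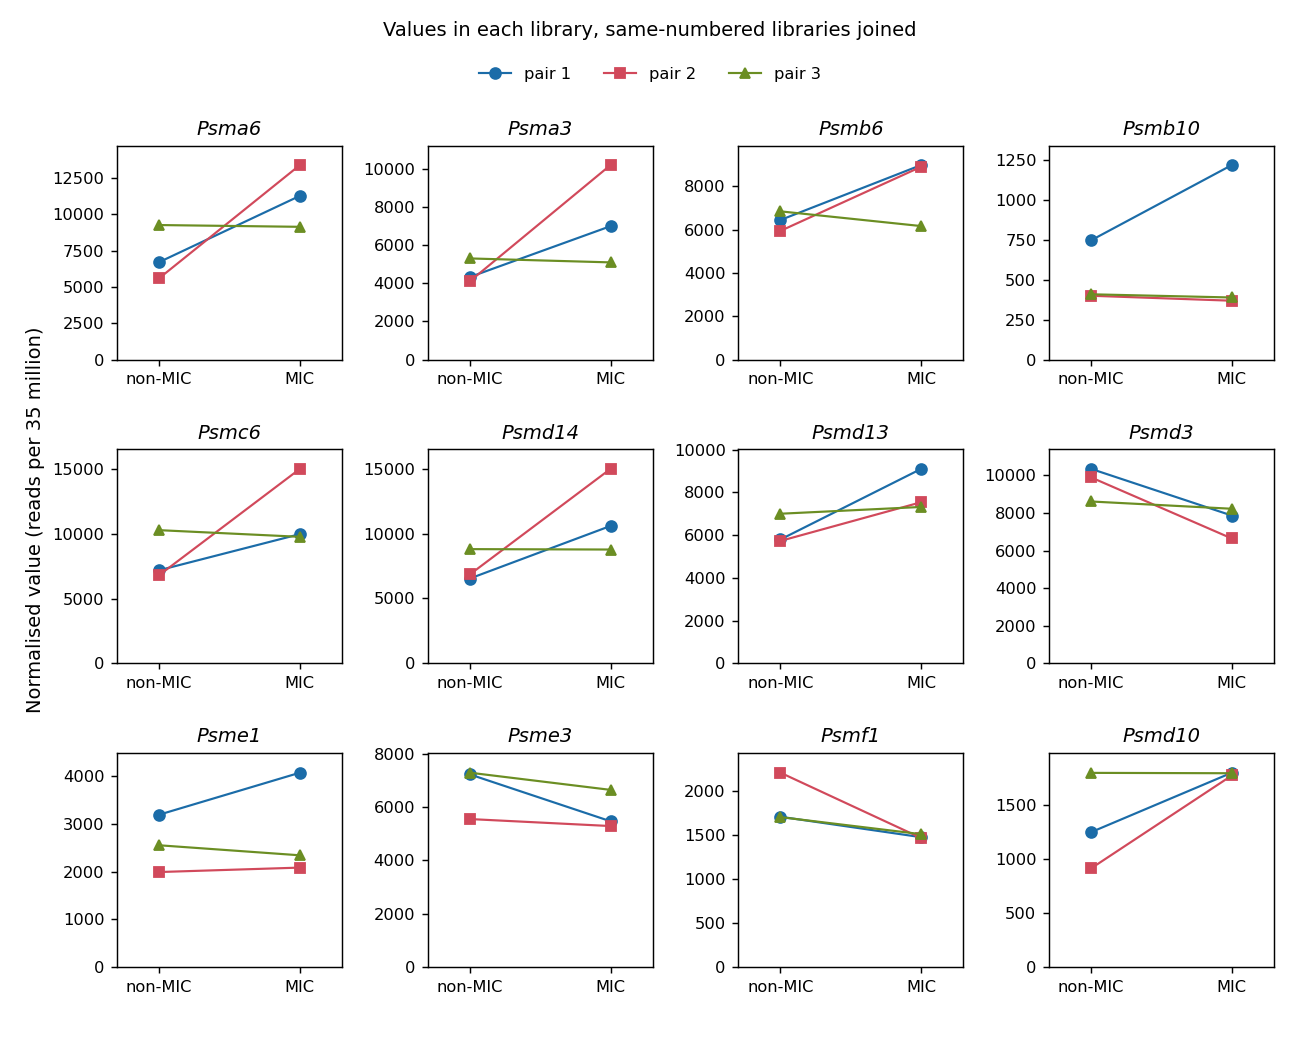
Normalised values (reads per library of 35000000, vertical axes from 0) of 12 proteasome genes in each library, with lines joining the non-MIC and MIC library of a pair. Psma6, Psma3, Psmc6, Psmd14 and Psmd10 go up steeply in pairs 1 and 2 and stay level in pair 3, Psmb10 goes up only in pair 1, and Psmf1 goes down in all 3 pairs.

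The beta ring had medians of 0.51, 0.23 and -0.071 in pairs 1, 2 and 3 (0.55, 0.12 and -0.0020 after TMM), and all 8 genes were higher in pair 1. Its catalytic members are Psmb6 with the caspase-like site, Psmb7 with the trypsin-like site and Psmb5 with the chymotrypsin-like site, which is the main target of clinical proteasome inhibitors. Psmb6, whose promoter window holds the first motif, was at 8981, 8903 and 6164 in the MIC libraries and at 6445, 5942 and 6843 in the non-MIC libraries. MIC libraries 1 and 2 were nearly equal and above the rest, and MIC library 3 lay within the non-MIC range. Psmb6 had a log2 fold change of 0.30 ± 0.21 (SE), with a limma adjusted p of 0.537 with the block.

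Psmb7 was at 7776, 6194 and 7101 in the MIC libraries and at 5435, 5601 and 6954 in the non-MIC libraries. It was the only core gene on the MIC side in all 3 pairs as deposited, by 1.43-, 1.11- and 1.02-fold, although non-MIC library 3 exceeded MIC library 2. Psmb7 had a log2 fold change of 0.23 ± 0.20 (SE), with a limma adjusted p of 0.617 with the block.

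Psmb10 encodes the inducible subunit that replaces the Psmb7 product in immunoproteasomes. It was at 1221, 369 and 389 in the MIC libraries and at 748, 400 and 410 in the non-MIC libraries. Both libraries of pair 1 stood above the other 4, and MICs were higher in that pair alone, by 1.63-fold. Psmb10 had a log2 fold change of 0.17 ± 0.51 (SE), with a limma adjusted p of 0.777 with the block, where the SE was 0.21, so that the pairs differed more than the populations did. Reads of Psmb10 relative to Psmb7 were 0.157, 0.0596 and 0.0549 in the MIC libraries and 0.138, 0.0715 and 0.0589 in the non-MIC libraries. Pair 1 also had the highest level of the basal markers, and whether this bears on the level of Psmb10 was not tested.

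Among the noncatalytic beta genes, Psmb1 was at 8868, 10711 and 6414 in the MIC libraries and at 5759, 6023 and 6947 in the non-MIC libraries. As for Psmb6, MIC libraries 1 and 2 were the highest and MIC library 3 was within the non-MIC range. Psmb1 had a log2 fold change of 0.45 ± 0.23 (SE), with a limma adjusted p of 0.431 with the block. Psmb2 was at 6715, 6747 and 4859 in the MIC libraries and at 4944, 5021 and 5103 in the non-MIC libraries, so that MIC library 3 was the lowest of the 6. The log2 fold change of Psmb2 was 0.27 ± 0.20 (SE), with a limma adjusted p of 0.561 with the block. Psmb3 and Psmb4 differed by 0.35 and 0.51 in pair 1, by 0.26 and 0.19 in pair 2 and by -0.10 and -0.062 in pair 3.

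Psmb5 varied most between replicate numbers of all 45 genes. It was at 2746, 2356 and 685 in the MIC libraries and at 1808, 2103 and 696 in the non-MIC libraries. Both number 3 libraries were far below the other 4, and within a pair the MIC library was 1.52, 1.12 and 0.985 times the non-MIC library. The log2 fold change was 0.25 ± 0.61 (SE), with a limma adjusted p of 0.600 with the block. Averaged over both populations, the highest replicate number exceeded the lowest 3.30-fold, whereas the ratio was 1.06 for Psma6 and 1.03 for Psmd4.

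The low value in pair 3 coincided with a high value of Gm3375, a processed pseudogene that shares stretches of identical sequence with the Psmb5 coding sequence. Gm3375 had values of 10.8, 10.0 and 849 in the MIC libraries and of 7.41, 8.45 and 787 in the non-MIC libraries. It made up 55.3% and 53.1% of the sum of both genes in MIC and non-MIC library 3, and between 0.391% and 0.423% in the other 4 libraries. Summed, Psmb5 and Gm3375 gave 2757, 2366 and 1534 in the MIC libraries and 1815, 2111 and 1483 in the non-MIC libraries. The level in pair 3 relative to pair 1 was 0.303 for Psmb5 alone and 0.660 for the sum, and the pair differences of the sum were 0.60, 0.16 and 0.049. Whether reads of Psmb5 were assigned to the pseudogene in pair 3 was not tested.

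The stretch that both genes share is printed because reads from it match both. It is the longest run of identical bases between the Psmb5 coding sequence and Gm3375, 194 bases long in the GRCm38 annotation, and it is longer than a read of 75 bases.
Psmb5 coding bases 466 to 659, and Gm3375 at chr7:3181559-3181752, plus strand: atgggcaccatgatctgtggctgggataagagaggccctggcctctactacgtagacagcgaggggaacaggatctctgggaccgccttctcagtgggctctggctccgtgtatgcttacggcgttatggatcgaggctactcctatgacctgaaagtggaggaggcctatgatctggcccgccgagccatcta
Psmb5 lies at chr14:54614119-54618022 on the minus strand, and Gm3375 at chr7:3181093-3181888 on the plus strand. Of the 718 windows of 75 bases in the coding sequence of Psmb5, 292 are also in Gm3375. Of the other 45 genes, 13 share such windows with another gene, and their pseudogene copies in the table were at 1.59% or less of the value of the gene itself in every library.

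**Figure D4:**
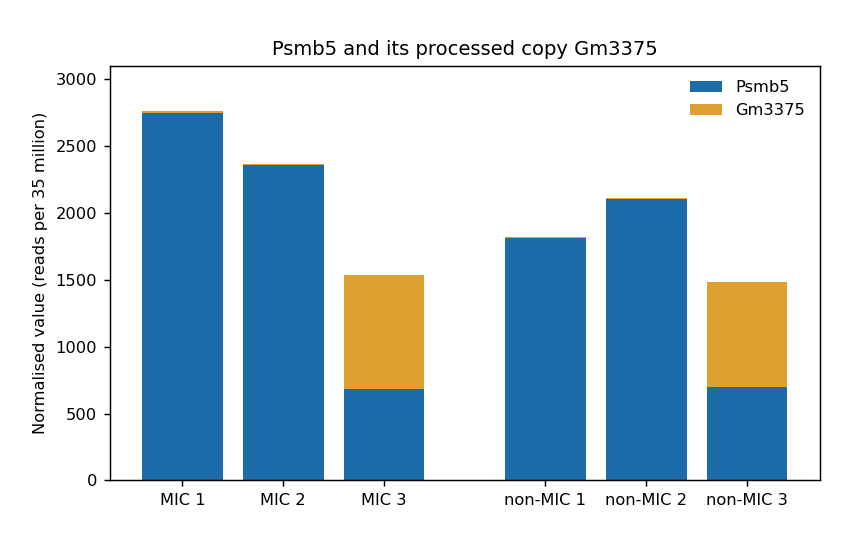
Normalised values (reads per library of 35000000, vertical axis from 0) of Psmb5 and, stacked on it, of the processed pseudogene Gm3375 in each of the 6 libraries. Gm3375 is barely visible in pairs 1 and 2 and makes up 55.3% and 53.1% of the stack in MIC and non-MIC library 3.

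Levels of the catalytic genes can be compared per kilobase of transcript. On that scale Psmb6 was the highest of the 4 in every library, between 7446 and 11255, followed by Psmb7 between 4685 and 6703. Psmb5 lay between 762 and 3055 per kilobase and Psmb10 between 282 and 931, and within each library Psmb5 was above Psmb10. The ranges of Psmb6 and Psmb7 did not overlap, while those of Psmb5 and Psmb10 did, through the number 3 libraries. Summed with Gm3375, per kilobase of the Psmb5 transcript, Psmb5 lay between 1649 and 3067, above every value of Psmb10.

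The 6 ATPases, which form the unfolding ring at the base of the cap, were all higher in MICs in pair 1, by a median of 0.39. In pair 2 the median was -0.11 and only Psmc6 was higher, and in pair 3 it was -0.043 (0.43, -0.22 and 0.026 after TMM). Psmc6 was at 9989, 15031 and 9780 in the MIC libraries and at 7199, 6821 and 10294 in the non-MIC libraries. MIC library 2 stood above all others, and non-MIC library 3 was above MIC libraries 1 and 3. Psmc6 had a log2 fold change of 0.51 ± 0.26 (SE), with a limma adjusted p of 0.423 with the block.

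Psmc3 was at 14009, 9815 and 11545 in the MIC libraries and at 10016, 10378 and 11297 in the non-MIC libraries. MIC library 1 was the highest and MIC library 2 the lowest of the 6, and the log2 fold change was 0.14 ± 0.20 (SE), with a limma adjusted p of 0.780 with the block. Psmc1 was at 8606, 6510 and 8377 in the MIC libraries and at 6572, 6845 and 8408 in the non-MIC libraries, a log2 fold change of 0.10 ± 0.20 (SE), with a limma adjusted p of 0.833 with the block. For both genes the non-MIC range lay within the MIC range. Psmc2, Psmc4 and Psmc5 were higher in pair 1 by between 0.22 and 0.39 and lower in pair 2 by between -0.26 and -0.15.

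The 11 non-ATPase genes of the cap were mixed, with 9, 7 and 5 of them higher in MICs in pairs 1, 2 and 3 and medians of 0.38, 0.13 and -0.0052 (0.42, 0.019 and 0.064 after TMM). Psmd14, the deubiquitinase that removes the ubiquitin chain from the substrate, was at 10590, 14988 and 8772 in the MIC libraries and at 6539, 6853 and 8804 in the non-MIC libraries. MIC libraries 1 and 2 were the highest, and the number 3 libraries were nearly equal, at 0.996-fold. Psmd14 had a log2 fold change of 0.61 ± 0.25 (SE), with an unadjusted limma p of 0.0442 without the block and an adjusted p of 0.417 with it.

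Psmd13, a subunit of the lid of the cap, was at 9094, 7536 and 7314 in the MIC libraries and at 5794, 5725 and 6997 in the non-MIC libraries. Every MIC library was above every non-MIC library, also after TMM. Psmd13 had a log2 fold change of 0.37 ± 0.19 (SE), with a limma adjusted p of 0.449 with the block. Psmd8, also of the lid, differed in the same way by 1.34-, 1.29- and 1.08-fold in pairs 1, 2 and 3.

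Psmd3, a further lid subunit, was at 7868, 6647 and 8229 in the MIC libraries and at 10352, 9898 and 8616 in the non-MIC libraries. It was the only subunit of the cap with every MIC library below every non-MIC library as deposited, and after TMM the populations overlapped. Psmd3 had a log2 fold change of -0.35 ± 0.19 (SE), with a limma adjusted p of 0.465 with the block. Psmd2, a scaffold of the base, was level in pairs 1 and 3, at 1.04- and 1.00-fold, and lower in MICs in pair 2, at 0.671-fold.

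Of the alternative activators, Psme1 and Psme2 encode the subunits of the interferon-inducible PA28 ring, and Psme2b is a copy of Psme2. Psme1 was at 4071, 2084 and 2342 in the MIC libraries and at 3192, 1992 and 2552 in the non-MIC libraries. As for Psmb10, pair 1 was above the other pairs in both populations. The log2 fold change of Psme1 was 0.10 ± 0.31 (SE), with a limma adjusted p of 0.839 with the block.

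Psme2 was at 5658, 3254 and 5440 in the MIC libraries and at 4033, 2175 and 5657 in the non-MIC libraries, and pair 2 was the lowest in both populations. Psme2 had a log2 fold change of 0.34 ± 0.38 (SE), with a limma adjusted p of 0.481 with the block. Psme2b was at 321, 167 and 312 in the MIC libraries and at 229, 123 and 311 in the non-MIC libraries, between 5.13% and 5.74% of Psme2, with a log2 fold change of 0.31 ± 0.46 (SE), and a limma adjusted p of 0.617 with the block. Since 60.2% of the windows of 75 bases in Psme2b are also in Psme2, the level of the copy is uncertain.

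The other activators and the inhibitor were lower in MICs in all 3 pairs, also after TMM. Psme3, which encodes the nuclear activator PA28 gamma, was at 5469, 5290 and 6646 in the MIC libraries and at 7226, 5552 and 7290 in the non-MIC libraries. Non-MIC library 2 was within the MIC range, and the log2 fold change was -0.20 ± 0.20 (SE), with a limma adjusted p of 0.650 with the block. Psme4, the large single-chain activator PA200, was at 4917, 5770 and 8764 in the MIC libraries and at 7489, 6761 and 9455 in the non-MIC libraries.

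For Psme4 the number 3 libraries were the highest of each population, and the log2 fold change was -0.31 ± 0.27 (SE), with a limma adjusted p of 0.497 with the block. Psmf1, the proteasome inhibitor PI31, was at 1472, 1463 and 1506 in the MIC libraries and at 1703, 2202 and 1699 in the non-MIC libraries. All MIC libraries lay below all non-MIC libraries, also after TMM, and non-MIC library 2 stood above the other non-MIC libraries. Psmf1 had a log2 fold change of -0.32 ± 0.20 (SE), with a limma adjusted p of 0.479 with the block.

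The 7 assembly chaperones were all higher in MICs in pair 1, with median differences of 0.38, 0.26 and -0.0027 in pairs 1, 2 and 3 (0.42, 0.15 and 0.067 after TMM). Psmd10, also known as gankyrin, helps to assemble the ATPase ring and binds the retinoblastoma protein. It was at 1794, 1769 and 1789 in the MIC libraries and at 1246, 912 and 1793 in the non-MIC libraries. The MIC libraries were nearly equal, and non-MIC library 3 was at their level while the other non-MIC libraries were lower. Psmd10 had a log2 fold change of 0.49 ± 0.27 (SE), with a limma adjusted p of 0.422 with the block.

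Psmg4 and Psmg3 encode partners in a chaperone pair of the alpha ring. Psmg4 was at 656, 503 and 195 in the MIC libraries and at 453, 255 and 215 in the non-MIC libraries, so that both number 3 libraries were the lowest. Psmg4 had a log2 fold change of 0.46 ± 0.52 (SE), with a limma adjusted p of 0.483 with the block. Psmg3 was at 795, 542 and 428 in the MIC libraries and at 525, 453 and 410 in the non-MIC libraries, and its log2 fold change was 0.30 ± 0.30 (SE), with a limma adjusted p of 0.558 with the block. Both values depended on single libraries: without MIC library 1 they were 0.10 for Psmg4 and 0.064 for Psmg3, and without MIC library 3 they were 0.98 and 0.51. For both genes pair 1 was the highest and pair 3 the lowest pair in each population. Psmd5, Psmd9, Psmg1 and Psmg2 had log2 fold changes between -0.0031 and 0.14.

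Psmc3ip, which matches by symbol only, was at 304, 242 and 529 in the MIC libraries and at 326, 201 and 624 in the non-MIC libraries. The number 3 libraries were the highest, and the log2 fold change was -0.022 ± 0.49 (SE), with a limma adjusted p of 0.977 with the block.

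Over all 45 genes the differences in pairs 1 and 2 tended to be lower in genes with a longer coding sequence, but within the core this did not hold in pair 1. Over the 45 genes, Spearman's rho between coding length and the MIC minus non-MIC difference was -0.46, -0.63 and 0.083 in pairs 1, 2 and 3, and over the 6500 genes with a mean value over 1000 and a coding length it was -0.55, -0.42 and -0.029. Within the 15 core genes rho was 0.48, -0.48 and 0.45 in pairs 1, 2 and 3, and within the 17 cap genes it was -0.59, -0.54 and -0.23. With transcript length in place of coding length, rho in pairs 1 and 2 was 0.36 and 0.35 within the core and -0.44 and -0.39 over the 45 genes. These are descriptions across genes of the same libraries, which are not independent replicates. The 29 proteasome genes with a coding length under 1000 bases had median differences of 0.50, 0.43 and -0.056, while all 1960 genes of that length with a mean value over 1000 had medians of 0.25, 0.20 and -0.020. The 13 proteasome genes of at least 1000 and under 2000 bases had 0.34, -0.081 and -0.044, against -0.10, -0.12 and -0.045 for 2308 genes of that length and level. All 15 core genes had a coding length under 1000 bases and all 6 ATPases a longer one, so that role and length cannot be told apart between these groups. The part of length in the differences was not tested.

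**Figure D5:**
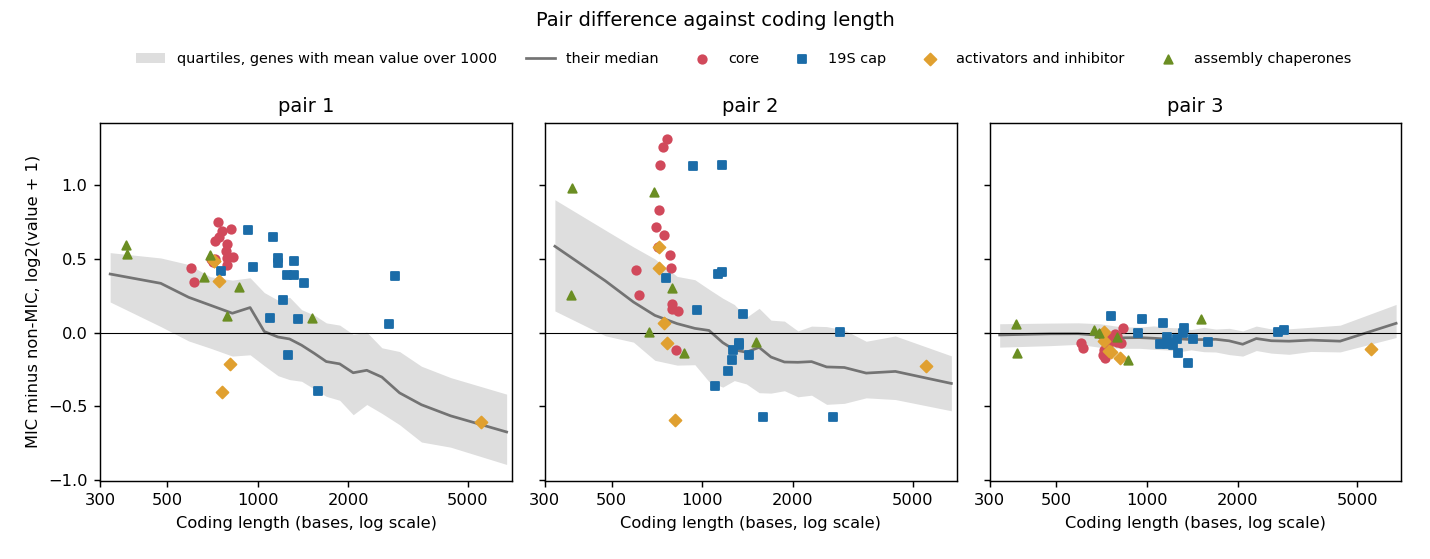
MIC minus non-MIC difference on the log2(value + 1) scale (vertical axis) against coding length in bases (horizontal axis, log scale) in pairs 1, 2 and 3, with 1 point per proteasome gene, and the median and quartiles of genes with a mean value over 1000 in 20 bins of length. The grey line slopes down in pairs 1 and 2 and is flat in pair 3, and all 15 core genes are above 0 in pair 1.

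The level of markers of other cell types moved with the pairs as well. In bulk RNA, other cells and expression of these markers by the sorted cells cannot be told apart. The part of these markers in the results was not tested. The 9 basal markers had a summed value between 24380 and 429054 in the MIC libraries and between 24140 and 145058 in the non-MIC libraries, with 9, 6 and 9 of them higher in MICs in pairs 1, 2 and 3. Their sum was at 2.96-, 1.01- and 1.53-fold in pairs 1, 2 and 3. In pair 2 most of it came from Krt17, at 15878 in the MIC and 17303 in the non-MIC library. Krt17, Krt14 and Oxtr were lower in MICs in that pair. The other 6 were higher, among them Acta2 at 3765 and 724 and Krt5 at 403 and 97.2. The 9 fibroblast markers were between 673 and 2168 in the MIC libraries and between 588 and 1160 in the non-MIC libraries, with 4, 6 and 9 higher. The fibroblast sum was at 1.87-, 0.907- and 3.42-fold in pairs 1, 2 and 3, and the core genes were at 1.47-, 1.58- and 0.961-fold. The 10 epithelial markers were between 236123 and 662220 in MICs and between 303389 and 784003 in non-MICs, with 1, 1 and 6 higher. The 7 immune markers were between 1353 and 3356 in MICs and between 1227 and 3059 in non-MICs, with 3, 6 and 3 higher. Most of the immune sum came from Cd14. No marker was at 0 in all libraries. Ptprc and Itgam were at 0 in both libraries of pair 1, and Adgre1 and Tyrobp at 2.16 or less. Csf1r was at 112 and 92.1 in MIC and non-MIC library 1, Cd68 at 60.4 and 84.7, and Cd14 at 1179 and 1048. In MIC and non-MIC library 2, Tyrobp was at 70.1 and 41.2, Cd68 at 269 and 248 and Csf1r at 55.6 and 107. Ptprc, Itgam and Adgre1 were at 12.2 or less in both libraries of pair 2, and each was higher in the MIC library.

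The other genes of the pathway were compared in the same fits, in 4 lists of 40 genes present in the table, and none was called by limma without or with the block or by edgeR with the block. Among 9 further subunits and assembly factors, the MIC library was the higher one for 4, 6 and 3 in pairs 1, 2 and 3 (5, 6 and 7 after TMM). It was the higher one for 45.2%, 53.5% and 35.8% of all genes (51.1% in pair 3 after TMM). Pomp, the maturation factor of the core, was at 6592, 7494 and 5034 in the MIC libraries and at 4575, 4704 and 5064 in the non-MIC libraries, the same arrangement as for the core genes. For Pomp the log2 fold change was 0.40 ± 0.21 (SE), with a limma adjusted p of 0.434 with the block. Txnl1, a thioredoxin bound to the cap, and Sem1, the smallest subunit of the lid, differed by 0.41 and 0.32 in pair 1, by 0.61 and 0.65 in pair 2 and by 0.038 and 0.060 in pair 3.

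Psmb8 and Psmb9 encode the inducible partners of Psmb5 and Psmb6. Psmb8 was at 1699, 284 and 1031 in the MIC libraries and at 1118, 294 and 960 in the non-MIC libraries, and Psmb9 at 220, 76.8 and 114 and at 145, 63.4 and 116. As with Psmb10, the pairs differed more than the populations, and adjusted p with limma and the block was 0.675 and 0.724.

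The 12 genes of the NRF1 pathway were mostly lower in MICs in pairs 1 and 2, with medians of -0.43, -0.16 and -0.052 in pairs 1, 2 and 3. Of these genes 1, 3 and 4 were higher in pairs 1, 2 and 3, beside 45.2%, 53.5% and 35.8% of all genes. After TMM 1, 2 and 7 were higher, with 51.1% of all genes higher in pair 3, and the median of pair 3 was 0.018. Nfe2l1 itself was at 7536, 10800 and 12061 in the MIC libraries and at 10434, 13468 and 11818 in the non-MIC libraries. It was lower in MICs in pairs 1 and 2 and higher by 0.029 in pair 3, and the populations overlapped. Whether the level of Nfe2l1 bears on that of the core genes was not tested. For Nfe2l1 the log2 fold change was -0.25 ± 0.24 (SE), with a limma adjusted p of 0.594 with the block, and Nfe2l1 was named after its values were seen.

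The members of this list with the smallest p in the fit with the block were Mafg, a small Maf partner of NRF1, Syvn1, the ligase that ubiquitinates NRF1, and Vcp, the segregase that extracts it from the membrane. Their differences were -0.90, -0.50 and -0.26 in pair 1, -0.075, -0.42 and -0.69 in pair 2, and -0.40, -0.15 and -0.036 in pair 3, where Vcp was at 0.034 after TMM, and the adjusted p values with limma and the block were 0.423, 0.438 and 0.517. Of 17 genes for ubiquitin supply and for shuttles to the proteasome, the MIC library was the higher one for 6, 6 and 5 in pairs 1, 2 and 3 (7, 4 and 9 after TMM). The shares of all genes were 45.2%, 53.5% and 35.8% (51.1% in pair 3 after TMM). Bag6, Ubqln4 and Nploc4, which handle substrates on their way to the proteasome, were lower in all 3 pairs under both scalings. So were 18.8% of all genes as deposited and 16.4% after TMM. The log2 fold changes of Bag6, Ubqln4 and Nploc4 were -0.45, -0.43 and -0.41, with limma adjusted p with the block of 0.419, 0.422 and 0.423.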

How the data were processed

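RNA was measured by stranded mRNA sequencing (paired reads of 75 bases) in 3 MIC and 3 non-MIC libraries. The deposited signal is counts per gene that the authors normalized to library size and filtered for genes expressed in at least 50% of samples. The GEO processing notes name STAR and HTSeq and the study's methods name Bowtie2, so the aligner is uncertain, and versions are not given in the sources used here.

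Dividing by the value of 1 read gave whole reads (within 0.01) for 99.97% to 100.0% of values. These reads set counting error only. Symbols, coordinates and coding lengths came from GENCODE vM21 on GRCm38 for 22161 of 22310 genes.

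log2(value + 1) was fitted with limma 3.58.1 (lmFit, eBayes with trend; R 4.3.3), with Benjamini-Hochberg adjustment over 22310 genes at 0.05, without a block. Libraries were paired by replicate number. Deviations from group means correlated at 0.573 to 0.746 between same-numbered libraries and at -0.536 to -0.194 otherwise. Since deviations cancel out within a group, positive values for same numbers push the others below them into the negative. A shared tumor, sort or batch cannot be told apart from these values. The alternatives were the block, other pseudocounts (0.1 and 10), a filter on low values, TMM, edgeR 4.0.16 and DESeq2 1.42.0 on recovered reads, and leaving out libraries. The scripts were tested on simulated data. Summaries used pandas 2.3.3 in Python 3.11.15.

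Genes named in full were the catalytic subunits with Psmb10, each activator, the inhibitor, any gene called and the 3 genes of each role with the smallest p in the blocked fit, with the same 3 per list for other genes. The genes, roles and lists were chosen with earlier results of these data known.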

Additional observations from a re-analysis of the deposited data

How the results depend on the processing

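No proteasome gene was called under any of the alternatives run, in either direction. The number of genes called over the whole table depended on the pairing: with the replicate block limma called 27 higher and 2 lower in MICs, with TMM and the replicate block 30 and 2, edgeR on recovered reads with the replicate block 232 and 83, and DESeq2 with the replicate block 110 and 23, against 0 and 0 without it and 1 higher with DESeq2 without the block. Leaving out a pair under the replicate block gave between 0 and 48 genes higher and between 0 and 11 lower: none without pair 3, 48 and 11 without pair 2, and 9 and 2 without pair 1. Leaving out 1 library without the block gave 0 in each case.

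Of 133 recomputed group medians, 1 moved by more than the spread between replicates, that of the assembly chaperones. It ranged from 0.091 to 0.38 on leaving out a library and was highest without MIC library 3. That spread was large, at 0.29 beside a median of 0.41 for the alpha ring and 0.20 beside 0.079 for the ATPases. The ATPase median turned to -0.0045 without MIC library 1 and to -0.067 with the block and without pair 1. That of the activators and inhibitor turned from -0.052 to 0.074 without MIC library 2. The median of all 45 genes fell from 0.23 to 0.088 with the block and without pair 1. Of the 25 genes named by the rule, 17 kept the sign of their log2 fold change in all alternatives run. Leaving out 1 library moved the value of 21 of the 25 by over 1.5 times or turned its sign, all but Psma6, Psmb7, Psmd3 and Psmd13. Among those that kept their sign, Psmg4 ranged from 0.10 without MIC library 1 to 0.98 without MIC library 3, Psmg3 from 0.064 to 0.51 without the same libraries, and Psme4 from -0.55 without MIC library 3 to -0.14 without MIC library 1. Psmc3ip was at 0.0045 with DESeq2 and the block. Leaving out a library or pair turned the sign of 8, within -0.025 to 0.27 for Psmc3, -0.039 to 0.23 for Psmc1, -0.040 to 0.65 for Psme2, -0.058 to 0.62 for Psme2b, -0.20 to 0.29 for Psme1, -0.25 to 0.88 for Psmb5, -0.39 to 0.47 for Psmb10 and -0.41 to 0.41 for Psmc3ip. The library whose removal turned the sign was MIC 1 for Psme1, Psmb5, Psmb10 and Psmc3ip, MIC 2 for Psmb5 and Psmc3ip, non-MIC 2 for Psme1, Psme2 and Psme2b, and non-MIC 3 for Psmb5 and Psmc3ip, and Psmc1 and Psmc3 turned only without pair 1 under the block. With the replicate block and without pair 1, Psme1 was at -0.029, Psmb10 at -0.094 and Psmc3ip at 0.017, and without pair 3 Psmc3ip was at 0.086.

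Rescaling the pairs by TMM and summing Psmb5 with its copy were chosen after seeing the data. In pair 3, TMM turned the median of the core to 0.0075, of the cap to 0.043, of the chaperones to 0.067 and of all 45 genes to 0.025, and the cause was not tested. The sum with Gm3375 gave Psmb5 a mean difference of 0.27. The SEs of the proteasome genes were 0.18 to 0.61 without the block and 0.16 to 0.24 with it, and no proteasome gene passed the adjusted threshold in either fit.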
